A study of Caenorhabditis elegans with 2 samples.

Results

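The genes examined were 9 protein-coding heterochronic genes of the nematode Caenorhabditis elegans, lin-14, lin-28, lin-29, lin-41, lin-42, lin-46, hbl-1, blmp-1 and dre-1, out of 19973 protein-coding nuclear genes in the annotation. They were taken as a list of named genes, and every peak of DNA binding whose summit lay from 5 kb upstream of a gene to 1 kb downstream of it, introns included, was taken as a peak of that gene. The binding was that of PEB-1, a FLYWCH-type zinc finger protein, measured by ChIP-seq, which sequences the DNA recovered with an immunoprecipitated protein. The samples were 2 biological replicates of whole L2 larvae, an early larval stage, of mixed sex and of unknown age. Both came from strain OP86, genotype unc-119(ed3) III with wgIs86, an integrated transgene for an eGFP fusion of PEB-1. The labels give peb-1 as the antibody target, and neither the number of transgene copies nor the cells that express the fusion is stated. There was 1 group, with no untreated or untagged group, so no test between conditions was possible. Peak lists carry no expression values, and the stage could not be checked against marker genes.

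Heterochronic genes set the order in which the larval stages of the worm are passed through, much as homeotic genes set the identity of body regions. Early factors such as LIN-14, LIN-28 and HBL-1 hold cells in early fates until microRNAs of the lin-4 and let-7 families silence them. LIN-41 then gives way to LIN-29, the transcription factor that starts the larval-to-adult switch of the skin, while LIN-42, BLMP-1 and DRE-1 tie these fates to the rhythm of the molts.

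In the pooled list and in replicate 1, binding was strongest in an intron of lin-42 and at 2 sites of lin-14. The lin-14 sites lay beside its upstream start and in an intron. The lin-42 site also came first in replicate 2, at rank 23. There the 2 lin-14 sites ranked only 988 and 2932, below peaks of lin-42, dre-1, lin-29 and blmp-1 and a different lin-14 peak. Sequence is shown for the peaks on which the results turn. These are the 3 sites first named, a further intron site of lin-14 and the highest pooled peak of lin-29. That further lin-14 site ranked far higher in replicate 2 than in replicate 1. Each stretch is 101 bases of the reference assembly WBcel235 (the ce11 build), centred on the summit of the pooled peak and written 5′ to 3′ along the strand of the gene. Capitals mark GAGAGA and the core of a PEB-1 consensus recalled from published work, which is TGCC after any base but C and before a purine, on either strand.

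lin-42 intron, pooled rank 5, chrII:1238037-1238137, minus strand: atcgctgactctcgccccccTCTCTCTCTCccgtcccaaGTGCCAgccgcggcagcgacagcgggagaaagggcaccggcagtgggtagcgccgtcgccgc

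lin-14 promoter, pooled rank 30, chrX:11465337-11465437, plus strand: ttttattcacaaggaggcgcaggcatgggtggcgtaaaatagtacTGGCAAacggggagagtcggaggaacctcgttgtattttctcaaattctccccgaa

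lin-14 intron, pooled rank 44, chrX:11474323-11474423, plus strand: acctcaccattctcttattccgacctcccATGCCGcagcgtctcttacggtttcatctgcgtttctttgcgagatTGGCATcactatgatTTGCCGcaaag

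lin-14 intron, pooled rank 1166, chrX:11473344-11473444, plus strand: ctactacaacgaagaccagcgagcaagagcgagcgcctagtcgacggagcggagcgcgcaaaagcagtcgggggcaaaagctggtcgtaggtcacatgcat

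lin-29 intron, pooled rank 318, chrII:11929139-11929239, minus strand: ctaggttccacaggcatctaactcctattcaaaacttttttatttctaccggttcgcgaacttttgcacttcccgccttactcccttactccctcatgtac

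The lin-42 stretch carried 3 overlapping GAGAGA matches on the strand opposite to the gene and 1 core match, GTGCCA, that began 11 bp before the summit. The lin-14 promoter stretch carried 1 core match, TTGCCA on the opposite strand, beginning 5 bp before the summit, and the lin-14 intron stretch of rank 44 carried 3. The stretches of rank 1166 and of lin-29 carried none of these letters.

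The peak lists used were all in ce11 coordinates. The thresholded list held 160 peaks and the pooled list of both replicates held 30000, as did the list of each replicate; the long lists include background by design. Rank 1 is the peak with the highest signal, the peak height given by the authors' peak caller, and signals are compared only within a list. The lowest thresholded peak had a signal of 35.4 and pooled rank 1000 a signal of 22.5, against a pooled median of 12.8. The highest signals were 154 in replicate 1 and 54.2 in replicate 2, with medians of 7.63 and 6.92. Thresholded peaks ranked at a median of 84.5 in replicate 1. In replicate 2 the median was 484 over those that overlapped a peak there, leaving out 11 of the 160 that overlapped none. Replicate ranks are therefore given beside the thresholded peaks and the best pooled peak of each gene. No depth of sequencing stands behind these values in the files used.

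Of the 9 genes, 3 had a thresholded peak in the window, lin-42, lin-14 and blmp-1, with 4 peaks among them. Over all 19973 protein-coding genes the share was 1.19%. Windows grow with the gene, and these genes were long, with a median length of 7697 bp against 2027 bp for all protein-coding genes. Of the 4 genes of at least 10 kb (lin-14, lin-29, lin-42 and dre-1) 2 had a thresholded peak, where the share was 3.31% for all genes that long. Of the 5 shorter genes 1 did, against 1.08%. When only the nearest annotated transcription start site (TSS) of any gene counted, both lin-14 peaks went to non-coding RNA genes.

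A peak among the 1000 highest of both replicates lay in the windows of 4 genes, lin-14, lin-29, lin-42 and blmp-1. The share over all protein-coding genes was 1.77%, over genes of at least 10 kb 6.11%, and over shorter genes 1.54%; 3 of the 4 long members and 1 of the 5 short ones had such peaks. In each of the 4 genes at least 1 pair of these replicate peaks overlapped. Replicate 1 alone placed 14 of its 1000 highest peaks in the windows of 6 genes, against 7.65% of all protein-coding genes with such a peak, and replicate 2 alone placed 9 in the windows of 5 genes, against 8.25%. Overlapping counterparts among the 1000 highest of the other replicate existed for 5 of the 14 and for 5 of the 9. No overlapping peak at all existed for 3 of the 14, which lay at lin-28 and lin-41, and for 1 of the 9, at lin-29.

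**Figure D1:**
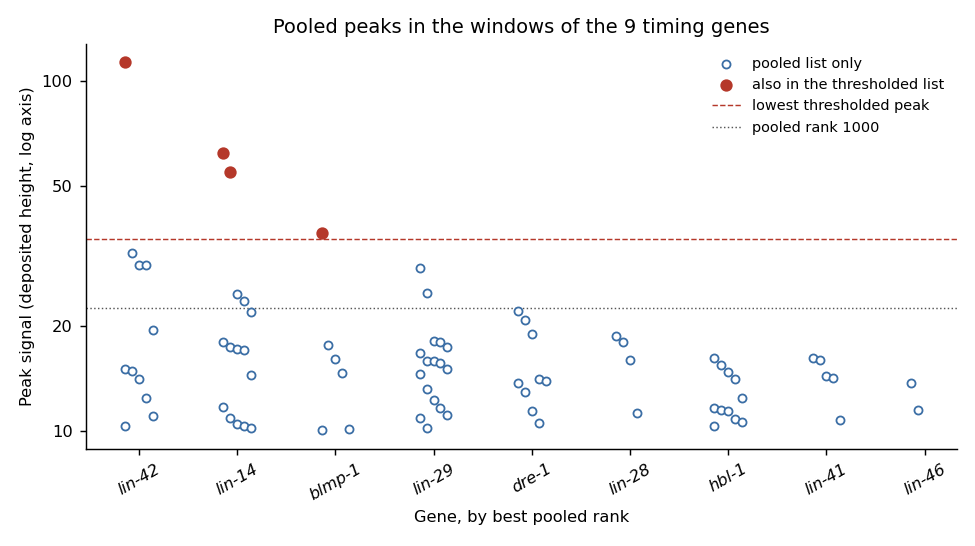
Signal (deposited peak height, log axis) of every pooled peak in the windows of the 9 genes, ordered by best pooled rank; filled points are thresholded peaks and open points are other pooled peaks. The lin-42 peak at 113 stands above the lin-14 peaks at 62.1 and 55.0 and the blmp-1 peak at 36.9, and the remaining genes lie below the lowest thresholded signal of 35.4.

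The windows together held 80 pooled peaks, and none was shared between genes. There were 0.541 peaks per kb of window over all 9 genes, with a median of 0.477 per gene against 0.284 for all protein-coding genes. The numbers ran from 2 at lin-46 and 4 at lin-28 through 5 at lin-41, 6 at blmp-1, 9 at dre-1 and 11 at each of lin-42 and hbl-1 to 15 at lin-14 and 17 at lin-29. Many peaks therefore did not mean strong peaks, since hbl-1 with 0.947 pooled peaks per kb had a best rank of 5805. Both replicates overlapped 35 of the 80 (43.8%, against 34.2% of all pooled peaks), 31 were overlapped by replicate 1 only and 11 by replicate 2 only. The pooled list placed 11 of its 1000 highest peaks in the windows of 4 genes (lin-14, lin-29, lin-42 and blmp-1), where 7.44% of all protein-coding genes had such a peak. All 11 overlapped peaks of both replicates, against 86.3% of the 1000 highest overall. Of these 11, 5 were intronic, 2 intergenic, and 1 each in a coding exon, a 5′ UTR, a 3′ UTR and an exon of a non-coding RNA gene. Of all 80 pooled peaks in the windows, 33 were intronic, 19 intergenic and 16 in a coding exon. Another 5 lay in an exon of a non-coding RNA gene, 4 in a 3′ UTR and 3 in a 5′ UTR. Locations were not counted for pooled peaks outside the windows, so these numbers have no wider background beside them.

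The early-fate regulator lin-14 encodes a transcription factor whose messenger RNA is silenced by the lin-4 microRNA. It lies at X:11465560-11485871 on the plus strand and has 2 annotated transcripts with different starts. The first of its thresholded peaks ranked 30 of 160 (X:11465209-11465564, signal 62.1) and lay in intergenic sequence, with the summit 173 bp upstream of the upstream TSS and 14974 bp upstream of the downstream one. It ranked 27 in replicate 1 with a signal of 46.8 and 988 in replicate 2 with a signal of 12.2. The TSS nearest to this summit, 82 bp away, was that of T25C12.8, a non-coding RNA gene on the minus strand.

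The other thresholded peak of lin-14 ranked 44 (X:11474195-11474550, signal 55.0) and lay in the third intron of T25C12.1a.1, which is 11174 bp in length, 8813 bp downstream of the upstream start and 5988 bp upstream of the downstream one. Replicate 1 placed it at rank 28 with a signal of 46.4, next to the promoter peak, while replicate 2 placed it at 2932 with a signal of 10.3. The strongest lin-14 peak of replicate 2 was a different one. It ranked 123 there, with a signal of 15.7, and overlapped the pooled peak of rank 1166, whose summit lay 979 bp away from that of rank 44 in the same intron and 212 bp past the start of T25C12.6, which gives a non-coding RNA. In replicate 1 that peak ranked 14019 with a signal of 7.82. The replicates thus both placed binding in this intron but differed in the order of its sites, and in both the promoter peak stood within the 1000 highest. Further lin-14 peaks of pooled rank 650 and 801 lay 3787 bp upstream of the gene, nearest to T25C12.10, and, in the same intron again, 2430 bp upstream of the downstream start, nearest to T25C12.5. Replicate 1 gave them ranks of 328 and 950, and replicate 2 ranks of 9114 and 9171.

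**Figure D2:**
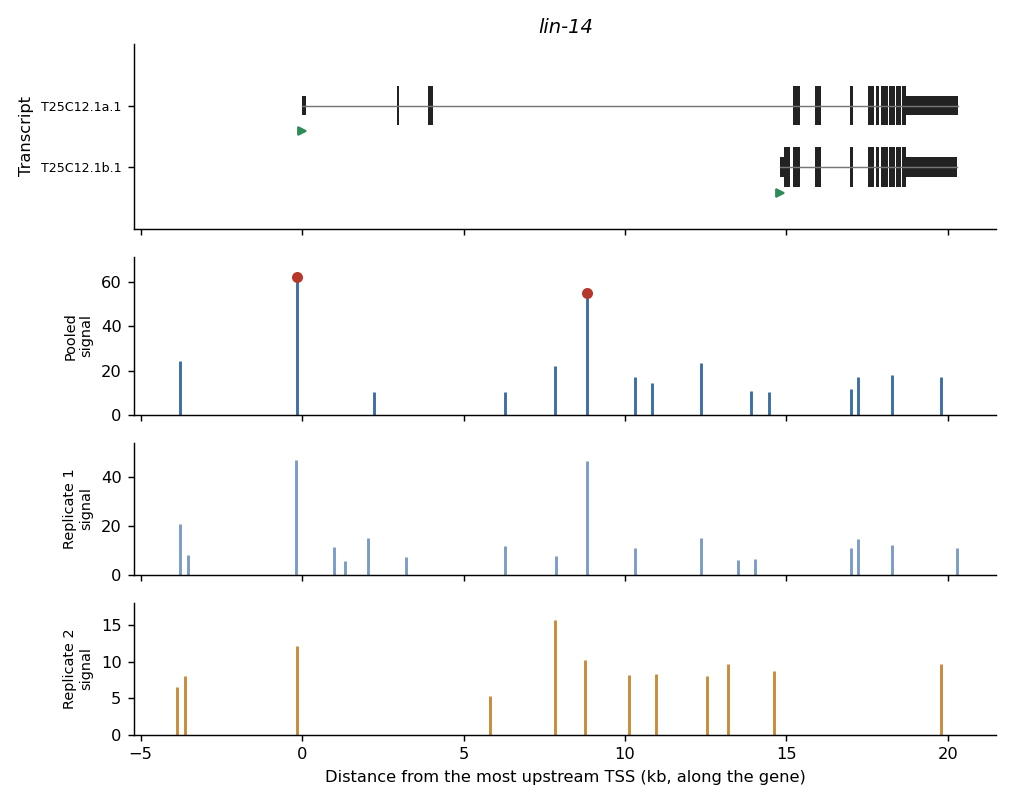
Annotated lin-14 transcripts (thick boxes coding, thin boxes untranslated, green arrowheads TSSs) above the signal of each peak in the pooled list and in replicates 1 and 2, by distance from the most upstream TSS in kb; red dots mark thresholded peaks. Promoter and intron sites lead in replicate 1 with signals of 46.8 and 46.4, while a site 979 bp upstream of the intron peak leads in replicate 2 with 15.7.

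The RNA-binding protein gene lin-28, whose product blocks the maturation of let-7, had no thresholded peak and only weak pooled ones. It lies at I:8407630-8410804 on the minus strand. Its best pooled peak ranked 2863 (signal 18.7), 583 bp upstream of the first TSS, and the next ranked 3476 (signal 18.0), 118 bp upstream of its downstream TSS. Replicate 1 ranked these 988 and 810, with signals of 15.1 and 15.9. Replicate 2 had no peak that overlapped either, and its best peak in the lin-28 window ranked 25785 with a signal of 5.57. The other replicate 2 peak in the window ranked 28979 (signal 5.27) and lay upstream of the gene, farther from a start than the replicate 1 peaks above. The pooled sites of rank 2863 and 3476 were thus listed by replicate 1 alone.

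The zinc finger gene hbl-1, the worm homologue of Hunchback and a further early-fate factor, held no strong peak although strong peaks flanked it at a distance. It lies at X:5822142-5827755 on the plus strand. The best of its 11 pooled peaks ranked 5805 (signal 16.2), 3901 bp upstream of the gene within an exon of F13D11.21, a non-coding RNA gene, and ranked 16541 and 25374 in replicates 1 and 2. A peak 425 bp upstream of its downstream TSS, in the first intron of F13D11.2a.1, ranked 7265 in the pooled list. It overlapped peaks of rank 25952 in replicate 1 and 4097 in replicate 2. That of replicate 1 was centred nearer to another pooled peak, of rank 21026. The best hbl-1 peak of replicate 1, of rank 1679 (signal 13.3), lay past the end of the gene. It overlapped the pooled peak of rank 8842 (signal 14.7) and a replicate 2 peak of rank 7905. The TSS nearest to that pooled summit, 797 bp away, was that of the protein-coding gene acp-5. Beyond the window, the nearest thresholded peaks were that of rank 9, 10005 bp upstream of the gene (X:5811959-5812314, signal 86.9, replicate ranks 9 and 27), and that of rank 12, 13538 bp past its end (X:5841115-5841470, signal 83.5, replicate ranks 13 and 10). The first was centred 14 bp downstream of the start of the non-coding RNA gene F13D11.9. The other was centred 57 bp past the start of W06B11.7, its nearest TSS, and fell on an exon there that gives a non-coding RNA. The nearest protein-coding TSS, 299 bp downstream of that summit, was that of puf-9, a Pumilio-family gene that acts with let-7 to repress hbl-1.

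LIN-46, a protein related to the scaffold gephyrin, acts downstream of lin-28 by restraining HBL-1, and by best rank lin-46 came last of the 9 genes in the pooled list and in replicate 1, though not in replicate 2. The gene is 1876 bp long, at V:12968855-12970730 on the plus strand. Its 2 pooled peaks ranked 11732 and 20742, with signals of 13.7 and 11.5, close to the median of the pooled list. The first lay in a coding exon of the neighbouring gene srd-35, overlapped a peak of replicate 2 only (rank 4618) and was 3462 bp upstream of lin-46. The other lay 310 bp upstream of the lin-46 TSS and overlapped a peak of replicate 1 only (rank 3329).

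Of the late-acting genes, lin-41, an RNA-binding protein gene that is a target of let-7, had no thresholded peak. It lies at I:9334800-9342496 on the minus strand with 2 TSSs. The pooled peak of rank 5927 (signal 16.1) lay in a coding exon, 617 bp downstream of the nearer TSS, and overlapped a peak of rank 4953 in replicate 1 and none in replicate 2. The peak of rank 6157 (signal 16.0) was 1585 bp upstream of the gene. The upstream peak ranked 357 in replicate 1 with a signal of 20.2, and no peak of replicate 2 overlapped it. The best peak of replicate 2 in the lin-41 window ranked 12018, with a signal of 7.44. Replicate 1 alone therefore gave lin-41 a peak within its 1000 highest, and its pooled rank was 6157.

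The adult-switch gene lin-29 (II:11917642-11935343, minus strand) carried no thresholded peak, but the best-ranked replicate peaks overlapping its best pooled peak took similar ranks. Its best pooled peak ranked 318 (II:11929011-11929366, signal 29.2), in the fourth intron of W03C9.4a.1 and W03C9.4b.1, 6154 bp downstream of the first TSS and 7751 bp upstream of its most downstream one, with the non-coding RNA gene Y17G7A.4 as nearest TSS. It ranked 651 in replicate 1 with a signal of 17.0 and 602 in replicate 2 with a signal of 13.0. The replicate 1 summit lay 156 bp from the pooled one. Another overlapping peak of replicate 1, centred nearer to the pooled summit, ranked 9698 with a signal of 8.77. A peak of pooled rank 616 (signal 24.8) lay 2592 bp downstream of the first TSS and ranked 1492 and 1114. Just upstream of the most downstream TSS, by 87 bp, a pooled peak of rank 4968 overlapped a peak that ranked 963 in replicate 2 and no peak of replicate 1. Signal at lin-29 was thus spread over several intron sites, none of which reached the thresholded list.

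Among the genes that link fate to molting, lin-42 had the highest peak of all 9 genes. The product is related to Period, a circadian clock protein, and the gene lies at II:1233236-1252359 on the minus strand and has 7 transcripts from 5 TSSs. The peak ranked 5 in the pooled and thresholded lists (II:1237909-1238264, signal 113), 5 in replicate 1 with a signal of 91.8 and 23 in replicate 2 with a signal of 22.0. Its replicate summits lay within 20 bp of the pooled one. The best peaks of only 3 protein-coding genes, lin-42 among them, ranked as high. It was intronic in F47F6.1b.1, F47F6.1d.1 and F47F6.1e.1, in an intron of 3559 bp, 14272 bp downstream of the most distal TSS (transcripts F47F6.1d.1 and F47F6.1f.1), 5948 bp downstream of that of F47F6.1b.1 and F47F6.1c.1 and 2014 bp downstream of that of F47F6.1e.1. The start of F47F6.1a.1, at 1118 bp downstream of the summit, was the nearest, and that of F47F6.1g.1 was 3462 bp downstream. The strongest lin-42 site was therefore not at any of its 5 annotated starts.

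A further 3 lin-42 peaks were among the 1000 highest pooled ones, close to each other in signal. The peak of rank 223 (signal 32.2) lay in the 8173 bp first intron of F47F6.1d.1 and F47F6.1f.1, overlapping an exon of non-coding F47F6.15 and 80 bp past the start of F47F6.13. The best-ranked replicate peaks that overlapped it ranked 188 and 1823. That of replicate 2 was centred nearer to another pooled peak, of rank 8593, and the replicate 2 peak centred on the summit of rank 223 ranked 3250 with a signal of 10.1. The peak of rank 292 (signal 29.8) was 675 bp downstream of the start of F47F6.1g.1, in the 3′ UTR of F47F6.1a.1 and F47F6.1b.1, and ranked 548 and 332. That of rank 294 (signal 29.8) was 264 bp downstream of the start of F47F6.1a.1, in its 5′ UTR, and ranked 366 and 10112. The peaks of rank 5 and 292 thus stood within the 1000 highest of both replicates. Just upstream of the most distal start, the best pooled peak ranked 8049 (signal 15.1), 1305 bp away.

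**Figure D3:**
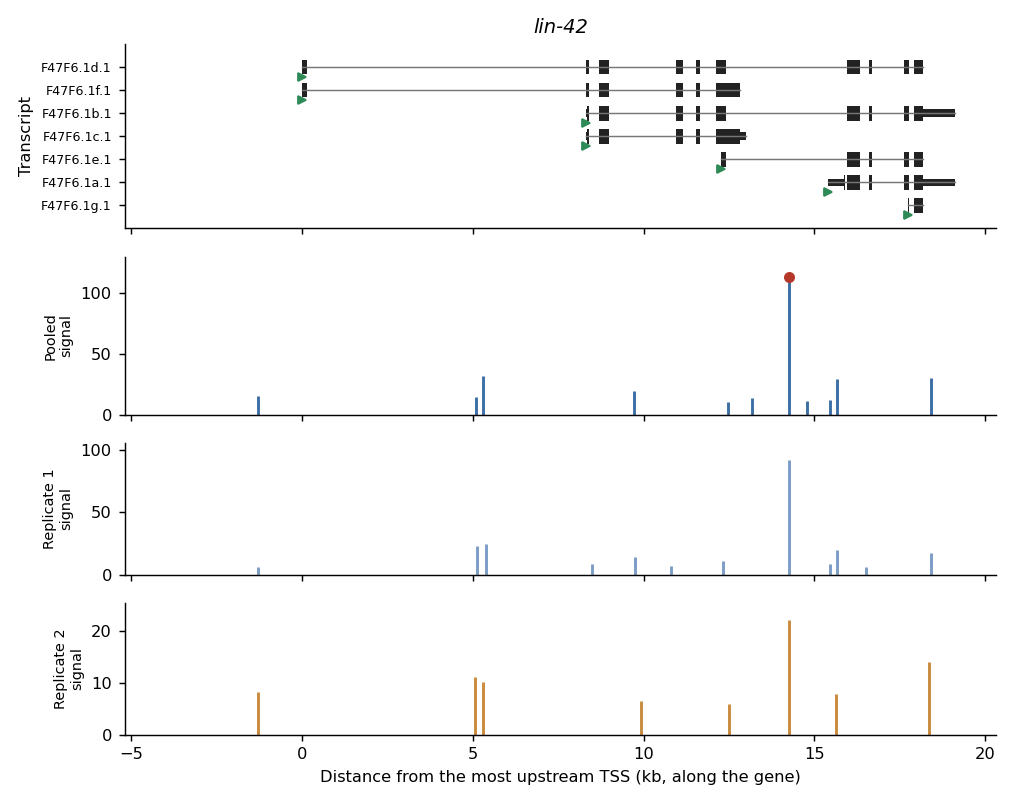
Annotated lin-42 transcripts (boxes exons, green arrowheads the 5 TSSs) above the signal of each peak in the pooled list and in replicates 1 and 2, by distance from the most upstream TSS in kb; the red dot marks the thresholded peak. The intron peak 14272 bp from the first start leads in the pooled list (113), in replicate 1 (91.8) and in replicate 2 (22.0).

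blmp-1 encodes a zinc finger factor related to mammalian Blimp-1 and lies at I:10409302-10414773 on the plus strand, with both of its transcripts starting at the same site. Its thresholded peak ranked 141 (I:10409305-10409660, signal 36.9), with the summit in a coding exon 181 bp downstream of that start. It was near the lower end of the thresholded list, whose last signal was 35.4. It ranked 141 in replicate 1 with a signal of 27.2 and 861 in replicate 2 with a signal of 12.5. The next pooled peak of blmp-1 ranked 3893 (signal 17.6), 4929 bp upstream. Of the 4 thresholded peaks, this one and the lin-14 peak of rank 30 lay beside an annotated start of their gene, at 181 and 173 bp.

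dre-1 encodes an F-box protein through which BLMP-1 is degraded, and lies at V:6533614-6546500 on the minus strand. It had no thresholded peak, and its best pooled peak ranked 1136 (V:6541727-6542082, signal 22.0), just below the 1000 highest. The summit fell on an exon of K04A8.16, a non-coding RNA gene within the 8299 bp first intron of dre-1, 4595 bp downstream of the first TSS and 3843 bp upstream of the last. It was 496 in rank in replicate 2, with a signal of 13.3, and 1981 in replicate 1, with a signal of 12.9. The pooled peak of rank 1562 (signal 20.8) lay 2794 bp downstream of the first TSS on an exon of K04A8.11 and overlapped a peak of replicate 1 only (rank 1061). A peak 2962 bp upstream of dre-1, in a coding exon of K04A8.20, ranked 2691 in the pooled list, 7557 in replicate 1 and 545 in replicate 2. The best dre-1 rank of replicate 2 was better than that of replicate 1, which among the 9 genes held also for lin-29.

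**Figure D4:**
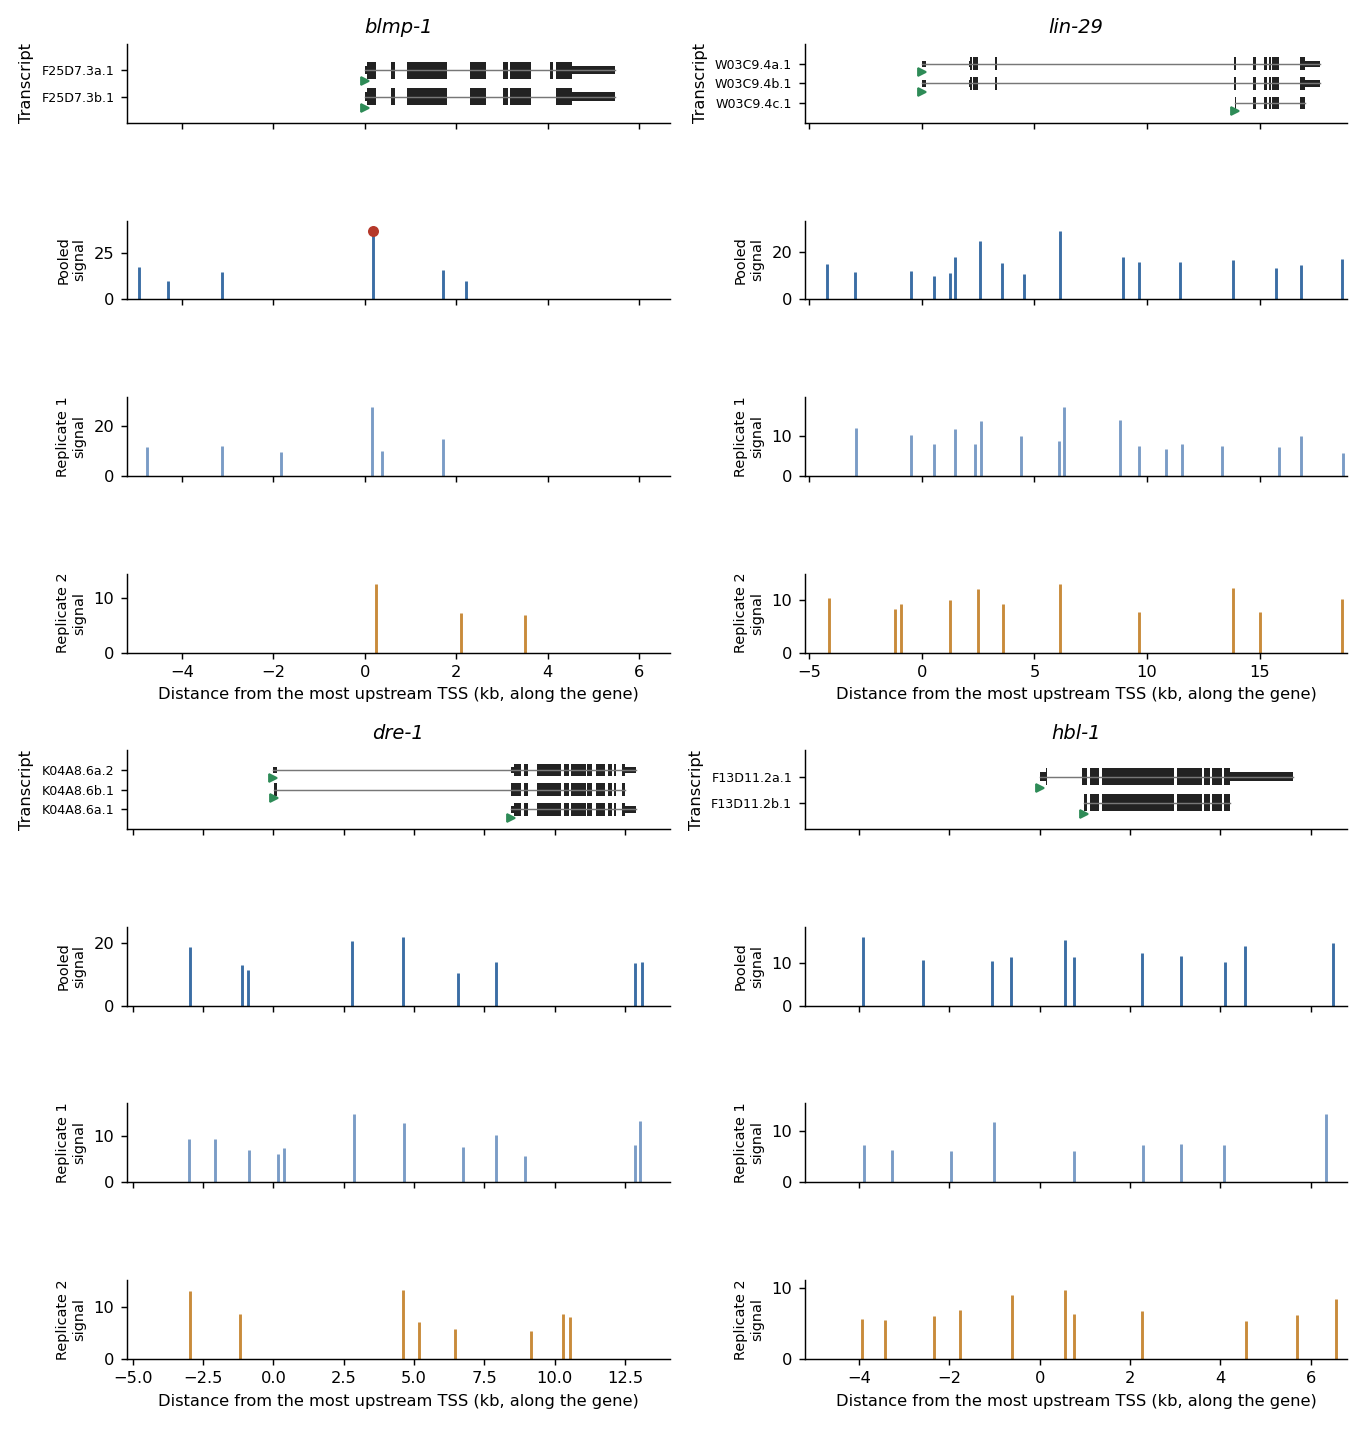
Transcripts of blmp-1, lin-29, dre-1 and hbl-1 (boxes exons, green arrowheads TSSs) above the signal of each peak in the pooled list and in replicates 1 and 2, by distance from the most upstream TSS in kb; the red dot marks the thresholded peak of blmp-1. The blmp-1 peak (36.9) stands at the gene start, while signals at lin-29 (up to 29.2), dre-1 (up to 22.0) and hbl-1 (up to 16.2) are spread along the genes.

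The order of the genes by best rank differed between the replicates below the first places. lin-42 came first in both, at ranks 5 and 23, and lin-14 followed in both, at 27 and 123, although by different sites. In replicate 1 the order went on with blmp-1 (141), lin-41 (357), lin-29 (651), lin-28 (810), dre-1 (1061), hbl-1 (1679) and lin-46 (3329). In replicate 2 it went on with dre-1 (496), lin-29 (602), blmp-1 (861), hbl-1 (4097), lin-46 (4618), lin-41 (12018) and lin-28 (25785). lin-28 and lin-41 thus had peaks among the 1000 highest of replicate 1 and took the last places in replicate 2, while dre-1 stood higher in the order of replicate 2. Of the 4 thresholded peaks, 3 overlapped a peak among the 1000 highest of both replicates, where 90 of all 160 did (56.2%).

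**Figure D5:**
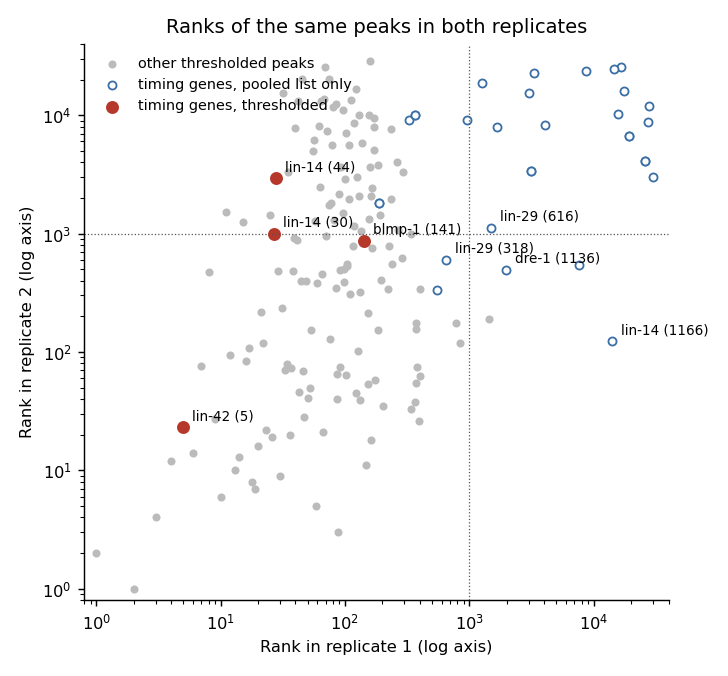
Rank in replicate 1 against rank in replicate 2 (log axes) for the pooled peaks of the 9 genes that overlap a peak in both, with other thresholded peaks in grey, pooled ranks in brackets and dotted lines at rank 1000. Each rank is that of the best-ranked overlapping peak of the replicate. Among the labelled points, lin-42 ranks 5 and 23 and lin-29 651 and 602, while the lin-14 intron sites rank 28 and 2932 or 14019 and 123.

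All 4 thresholded peaks of these genes held a core match within 100 bp of the summit, and 1 of them, that of lin-42, held GAGAGA. Over all 160 thresholded peaks the shares were 65% for the core and 57.5% for GAGAGA, and over the other 29840 pooled peaks 35% and 13.3%. Of the 11 member peaks among the 1000 highest, 8 held the core and 3 held GAGAGA, and each of the 3 held both. Over the 1000 highest pooled peaks the shares were 44.3% for the core and 37.4% for GAGAGA. The 3 were the lin-42 peaks of ranks 5, 223 and 294. The intron peak of lin-14 at rank 44 held 5 core matches within 100 bp, of which 3 lie in the stretch shown above, and the promoter peak held 1. The core match of blmp-1 began 90 bp upstream of the summit, and within 50 bp 3 of the 4 thresholded peaks held a match. No match was found at the lin-42 peak of rank 292, the lin-14 site of rank 1166 or the lin-29 peaks of rank 318 and 616, while the dre-1 peak of rank 1136 held 4 GAGAGA matches and 1 core match. Among the 11 peaks, base composition ran from 35.3% G and C at the lin-29 peak of rank 616 to 68.2% at the lin-42 peak of rank 5, and the part of this in the matches was not tested.

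Among 25 other timing genes, 10 had a thresholded peak in a window of the same size. Their list was chosen with earlier results of these data known, so its counts are description and not independent support. No share over non-coding genes was computed, and gene length was not matched. Of the 19 listed genes that encode proteins, 6 had a thresholded peak, against 1.19% of all protein-coding genes. They were puf-9 (rank 12), myrf-1 (rank 13), which encodes a membrane-bound factor needed for molting, din-1 (rank 38) and daf-12 (rank 90), which encode a corepressor and the nuclear receptor it acts with, nhl-2 (rank 93), a cofactor of microRNA silencing, and nhr-85 (rank 134), a nuclear receptor related to Rev-erb. The replicate peaks that overlapped these had ranks in replicates 1 and 2 of 13 and 10 for puf-9, 7 and 76 for myrf-1, 25 and 1444 for din-1, 99 and 504 for daf-12, 74 and 20270 for nhl-2, and 157 and 1340 for nhr-85. The non-coding genes were lin-4 (rank 84, replicate ranks 131 and 39), lep-5 (rank 51, 41 and 886), a long non-coding RNA gene that promotes the juvenile-to-adult transition, and mir-48 and mir-241, which shared the peak of rank 50 (replicate ranks 32 and 15541). A further thresholded peak in the lep-5 window ranked 121, and 105 in replicate 1 with no overlapping peak in replicate 2. The best pooled peak of let-7 ranked 321, and 845 and 4081 in the replicates. That of kin-20, a casein kinase gene related to Doubletime, ranked 206, and 181 in replicate 1 with no overlapping peak in replicate 2. Peaks among the 1000 highest of both replicates, not always the same peak, lay in the windows of 5 of the 19 protein-coding genes, against 1.77% of all protein-coding genes.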

How the data were processed

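PEB-1 ChIP-seq of 2 biological replicates was analysed from peak lists deposited for build ce11; lists for ce10 were not used. Per the accompanying file listing, the authors called relaxed lists against a control, per replicate and pooled, as input for the irreproducible discovery rate procedure; the thresholded list is its optimal set. Neither the caller nor the threshold is named there. The signal of a peak is its height as deposited, on an unstated scale, and ranks follow it, with ties broken by the deposited score, which is below 0 for 29058 of 30000 pooled peaks and was not read as significance. The members, gene lists and motifs were chosen with earlier results of these data known.

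Genes came from Ensembl release 115 (WBcel235, the same assembly as ce11), with symbols from RefSeq, and MtDNA was left out. Peaks overlapped at 1 bp or more. Where several peaks of a replicate overlapped a pooled peak, the best-ranked one was taken, even where another was centred nearer. A summit was classed as coding exon, then 5′ UTR, 3′ UTR, non-coding RNA exon, intron or intergenic. The genes named were the 9 members and the fixed list of other timing genes. The core letters come from a PEB-1 consensus recalled from published work, not from these data. Counts of genes are descriptions beside the share over all protein-coding genes, with no test, since there was 1 group. Python 3.11.15, pandas 2.3.3, numpy 2.4.6 and matplotlib 3.10.9 were used, and the window and overlap steps were tested on simulated data.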

Additional observations from a re-analysis of the deposited data

How the results depend on the processing

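A count was taken as moved when it changed by more than 1.5 times, and a best rank when it changed by more than 1 SD of the 2 replicate ranks. By these limits 15 of 74 recomputed values for 13 results moved. Single-replicate ranks were judged against an SD made from those same ranks. Ranking by signal alone could differ from the reported ranking only at ties. The tally is therefore not a measure of robustness. The SD is wide where the replicates differ, so the ranks of lin-41 count as unmoved although they span 357 to 12018. The thresholded list was not made anew without a replicate. With the 160 highest peaks of a single replicate in its place, the count of genes (3) was 3 for replicate 1 and 2 for replicate 2. In replicate 2, lin-14 counted only through its peak of rank 123, which overlapped the pooled peak of rank 1166 and no thresholded peak. The count with a peak among the 1000 highest of both replicates (4) fell to 2 at the 300 highest. It rose to 5 at the 3000 highest, and to 5 with the window of 10 kb upstream. The 3 thresholded peaks that overlapped such peaks in both became 1 at the 300 highest and 4 at the 3000 highest. For these thresholded peaks the limits were chosen after seeing the data. With a single replicate's list, best ranks ran from 27 to 123 for lin-14, 810 to 25785 for lin-28, 602 to 651 for lin-29, 5 to 23 for lin-42, 3329 to 4618 for lin-46, 1679 to 4097 for hbl-1, 141 to 861 for blmp-1 and 496 to 1061 for dre-1. The better ranks of lin-14, lin-28, lin-41, lin-42, lin-46, hbl-1 and blmp-1 came from replicate 1 and those of lin-29 and dre-1 from replicate 2. Other windows moved lin-46 to 20742 (2 kb upstream), as its peak of rank 11732, 3462 bp upstream, then fell outside. The window of 10 kb upstream took in peaks farther upstream and moved lin-46 to 4478 and hbl-1 to 1664. The thresholded peak of rank 9, 10005 bp upstream of hbl-1, lay just outside that window. Ranking by order in the file was not run, because the lists are sorted by position, and lin-46 had no pooled peak in the gene body alone. No paired analysis was possible because there was 1 group. Peak height carries no read count, so no counting error could be given.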
